A study of Rattus norvegicus with 113 samples.

Results

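The phagocyte NADPH oxidase is described here through 6 rat genes, Cybb, Cyba, Ncf1, Ncf4, Rac2 and Nox4, out of 16691 genes named on the arrays. They were chosen by name, through every probe whose RefSeq identifier belongs to one of these symbols, which gave 8 of the 56688 different probes. Levels were measured in naive, sham-injured and TBI rats, in the hippocampus and in the cortex beneath the injury, at 24 hr, 2 weeks, 3 months, 6 months and 12 months after surgery. All rats were adult male Sprague-Dawley rats. TBI rats received a parasagittal fluid percussion injury, in which a pulse of fluid strikes the closed dura and which the labels call moderate and the methods severe, sham rats had the same anesthesia and surgery without the pulse, and naive rats were neither anesthetized nor handled. Each array held tissue of a single rat, and a group held 4 arrays, except for the hippocampus at 24 hr, which is represented by 2 sham and 3 TBI rats and lacks naive rats here. By the number of rats in the methods, both tissues of an interval came from the same rats, but which hippocampus array shares its rat with which cortex array is not given in the sources used here.

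NADPH oxidase moves electrons from NADPH inside the cell across a membrane to oxygen and so makes superoxide. Cybb encodes the catalytic subunit of the phagocyte enzyme, also called gp91phox or Nox2, and Cyba encodes p22phox, its partner in the membrane. In resting cells the organizer p47phox (Ncf1) and p40phox (Ncf4) stay in the cytosol, and on activation they move to the membrane together with a small GTPase of the Rac family, which in blood cells is chiefly Rac2. Nox4 encodes another catalytic subunit, which also pairs with p22phox but makes hydrogen peroxide without the cytosolic subunits. In the brain the phagocyte subunits are best known from microglia and from infiltrating white blood cells.

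In the RefSeq annotation of the rat build GRCr8, Cybb lies on chrX:16030596-16065065, Cyba on chr19:67396143-67404214, Ncf1 on chr12:28121816-28131080 and Nox4 on chr1:150313736-150491480. Ncf4, on chr7:111705926-111723893, and Rac2, on chr7:111981825-112009201, lie on the same chromosome. The source used here held no promoter sequence of Ncf4 and Rac2. For the 3 other phagocyte subunits the sequence before the start of the gene is shown. It is given 5′ to 3′ on the gene's strand, up to the base before the first annotated base, for Cybb from chrX:16065066-16065315 (minus strand), for Cyba from chr19:67404215-67404464 (minus strand) and for Ncf1 from chr12:28121635-28121815 (plus strand). Capitals mark the only match to GAGGAA, the core bound by the myeloid factor PU.1, which here lies on the opposite strand and so reads TTCCTC.
Cybb: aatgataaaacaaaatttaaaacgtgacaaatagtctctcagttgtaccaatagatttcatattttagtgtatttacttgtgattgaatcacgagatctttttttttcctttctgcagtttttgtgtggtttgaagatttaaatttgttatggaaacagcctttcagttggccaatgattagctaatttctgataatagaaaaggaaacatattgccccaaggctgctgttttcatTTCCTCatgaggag
Cyba: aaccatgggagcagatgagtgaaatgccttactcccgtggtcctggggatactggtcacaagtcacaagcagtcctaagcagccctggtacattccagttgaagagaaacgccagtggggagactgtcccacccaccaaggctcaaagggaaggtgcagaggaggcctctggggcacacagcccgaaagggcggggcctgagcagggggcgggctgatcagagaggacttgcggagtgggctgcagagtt
Ncf1: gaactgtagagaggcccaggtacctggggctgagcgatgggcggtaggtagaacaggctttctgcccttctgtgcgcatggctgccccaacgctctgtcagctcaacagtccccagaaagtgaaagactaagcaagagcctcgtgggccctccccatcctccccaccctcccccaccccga
Both strands of windows of 250 bases of these genes and of Nox4 were searched for GAGGAA and for TTCNNNGAA, the core of a STAT site, where N is any base. Of the bases searched, 181 for Ncf1 and 97 for Nox4 lie before the annotated gene and the rest within it. The match in Cybb lay 14 to 9 bases before the first annotated base, and TTCNNNGAA matched in none of the 4 windows. GAGGAA was found in 7812 of 33469 rat windows of 250 bases (23.3%) and TTCNNNGAA in 2566 (7.67%), so that the match is a description only.

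A level is given below as the log2 of the processed signal minus the median of its array, so that 0 is a probe at the middle of the array and 1 unit is a doubling. Levels of different probes depend on their sequences, and the subunits were not ranked against each other. The scanner software's call of well above background serves as the measure of depth, and it covered 41.2% to 93.0% of the probes of an array (median 56.0%), with no saturated spot. Cyba and Ncf1 were well above background on all 113 arrays, and Rac2 and Ncf4 on 94 of 96 arrays of the larger design each and on 17 and 16 of 17 arrays of the smaller design. Cybb was well above background on 52 of 96 and 3 of 17 arrays and Nox4 on 1 of 96 and 0 of 17. The smaller design served the hippocampus at 24 hr and 3 months. A probe was tested if either group of the comparison had it well above background throughout, and was called at a Benjamini-Hochberg adjusted p under 0.05 from limma over all tested probes. Where groups are said not to overlap, the share of all probes without overlap is not given here, so that this describes the arrays only.

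Among the arrays, 2 stand apart and touch several results. Cortex sham replicate 3 at 2 weeks had 93.0% of its probes well above background, more than any other array, and its 75th percentile lay 0.80 log2 units above its median, against 2.20 to 4.01 on all other arrays. On it the summed linear level of 12 microglia and macrophage markers was 22.3, the lowest of a group that reached 581. This sum is of levels over the array median. Before that scaling the array had the highest signals of the larger design for Cybb (1886) and Ncf4 (4135). Hippocampus naive replicate 3 at 6 months held the highest level of Cybb, Cyba, Ncf1, Ncf4 and Rac2 of all hippocampus arrays except that Ncf4 was higher on 2 TBI arrays at 24 hr, and its microglia and macrophage sum was 4155. Tests of differences that rest on these arrays are given with and without them, and orders of group means and correlations with them only. As all RNA came from whole tissue, fewer cells of a type and less RNA per cell cannot be told apart.

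In the cortex at 24 hr all 5 measured phagocyte subunits were higher in TBI than in naive rats, with no overlap between the groups, and sham replicates 2 and 4 were the highest sham arrays for each of them. The TBI means lay 2.02-fold (Cyba) to 3.62-fold (Ncf4) above the sham means, but after adjustment no difference between TBI and sham rats passed the test. Cybb, the catalytic subunit, stood at -0.60, -1.78, -0.59 and -0.49 on the 4 naive arrays (the first and second not well above background), at -0.31, 0.69, 0.16 and 1.69 on the sham arrays and at 2.13, 1.92, 1.32 and 2.68 on the TBI arrays. Every sham array was above every naive array, and sham replicate 4 reached into the TBI range. For Cyba the naive levels were 5.24, 4.47, 5.08 and 4.93, the sham levels 4.54, 6.12, 4.95 and 5.88 and the TBI levels 6.89, 6.16, 5.83 and 6.66. Sham replicates 2 and 4 were again the highest sham arrays, and both exceeded the lowest TBI array.

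In the cytosolic subunits and Rac2 the same arrays were high, sham replicates 2 and 4 and TBI replicates 1 and 4. Ncf1 was at 2.80, 2.49, 3.04 and 2.66 in naive, at 2.37, 3.08, 2.57 and 3.31 in sham and at 4.53, 3.69, 3.58 and 4.56 in TBI rats, the only subunit whose TBI and sham arrays did not overlap. Ncf4 was at 1.56, 1.17, 1.17 and 1.05 in naive, at 1.43, 2.73, 1.5 and 3.54 in sham and at 5.03, 3.79, 2.93 and 4.88 in TBI rats. Rac2, the GTPase, was at 2.02, 1.74, 1.68 and 1.59 in naive, at 1.28, 2.91, 1.78 and 3.46 in sham and at 4.45, 3.80, 3.17 and 4.02 in TBI rats. For Ncf4 and Rac2, sham replicate 4 lay above TBI replicate 3. The log2 difference between TBI and sham was 1.45 ± 0.43 (SE) for Cybb, 1.86 ± 0.51 for Ncf4, 1.51 ± 0.41 for Rac2, 1.25 ± 0.27 for Ncf1 and 1.01 ± 0.35 for Cyba, with adjusted p between 0.0638 (Ncf1) and 0.131 (Cyba) in limma, so 0 of 5 were called where 0.217% of all probes were. By the thresholds of the methods, which ask for 1.4-fold or more with an unadjusted p under 0.05, all 5 were higher in TBI rats, against 9.05% of all probes. Without TBI replicate 3, limma called 3 of the 5 (it was the lowest TBI array for each of them), and with any other single array left out it called none. At this interval, in both tissues, no slide held arrays of both groups, and injury and slide cannot be told apart here. A second Ncf1 probe differed by 0.54 (adjusted p = 0.357).

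**Figure D1:**
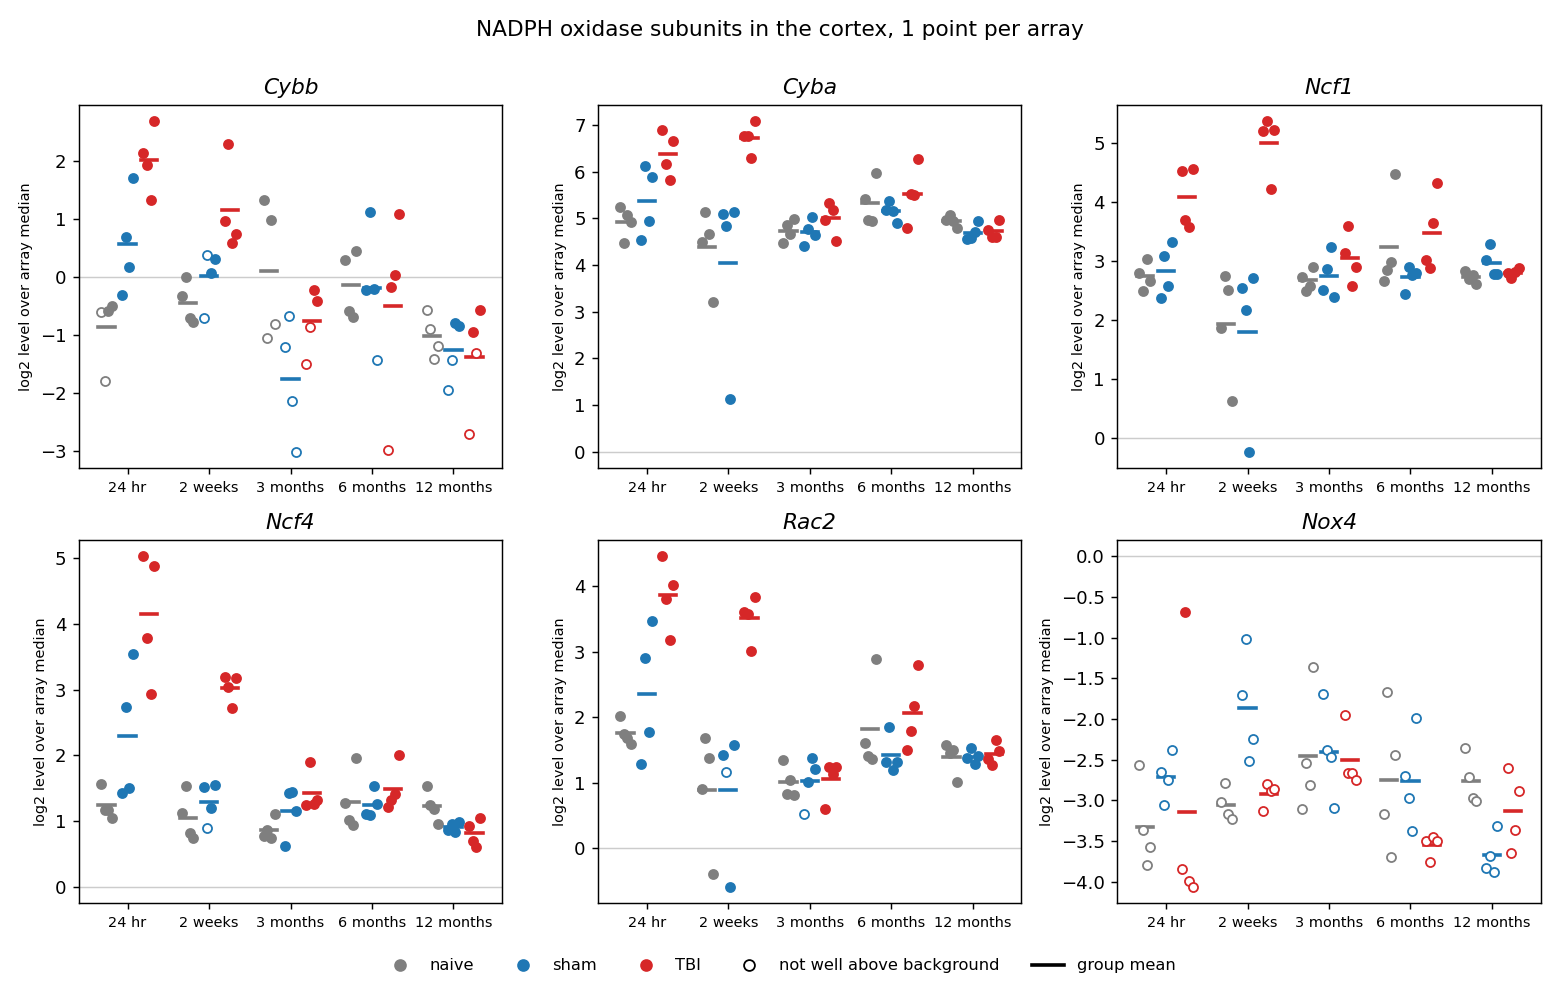
Levels of the 6 subunits in the cortex, on the y axis as log2 over the array median and on the x axis by interval after surgery, with 1 point per array, open where the probe was not well above background, and a line at each group mean. The TBI means of Cybb, Cyba, Ncf1, Ncf4 and Rac2 lie above the sham means at 24 hr, where single sham points reach into the TBI range for all but Ncf1, and at 2 weeks no sham point reaches a TBI point, and sham replicate 3 at 2 weeks is the low sham point of Cyba (1.13), Ncf1 (-0.23) and Rac2 (-0.59).

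In the hippocampus at 24 hr the TBI arrays were above both sham arrays for all 5 subunits, and Cyba passed the test. Cyba was at 4.50 and 5.52 in the 2 sham rats and at 6.79, 6.49 and 6.06 in the 3 TBI rats, a rise of 1.43 ± 0.35 (2.70-fold, adjusted p = 0.0457). Cybb was not well above background in either sham rat, at -3.23 and -1.94, and was at 0.53, -1.32 and -0.74 in TBI rats, which was at least 2.26-fold higher when the sham side is held at the lowest measurable signal (adjusted p = 0.0724). Ncf1 was at 2.5 and 2.64 in sham and at 4.19, 3.10 and 3.32 in TBI rats, a difference of 0.96 ± 0.33 (adjusted p = 0.105). The other cytosolic genes differed widely between the sham rats, of which replicate 2 was the higher.

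Ncf4 was at 0.97 and 2.89 in sham rats and at 4.0, 3.92 and 3.25 in TBI rats (1.79 ± 0.56, adjusted p = 0.0846). Rac2 was at 1.73 and 3.06 in sham rats and at 4.07, 3.54 and 3.43 in TBI rats (1.28 ± 0.41, adjusted p = 0.0904). Of the 5 subunits limma called 1 where it called 13.6% of all probes, and all 5 passed the thresholds of the methods where 11.1% of probes did so in that direction. The call of Cyba was lost when sham replicate 1 or any of TBI replicates 1, 2 and 3 was left out, while without sham replicate 2 limma called 3 subunits. The log2 difference of Cyba ran from 0.93 to 1.94 over these 5 omissions and that of Cybb from 1.43 to 2.72. With 2 sham arrays the precision is low, and those arrays were scanned on a slide and a day of their own.

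At 2 weeks in the hippocampus, where TBI and sham arrays shared a slide, Cybb, Cyba, Ncf1 and Rac2 rose 2.15-fold to 2.77-fold over sham rats. Ncf1 was at 2.38, 2.51, 2.83 and 2.62 in sham rats and at 4.0, 3.35, 4.37 and 4.50 in TBI rats, a rise of 1.47 ± 0.22 (adjusted p = 0.0251). Rac2 was at 1.30, 1.26, 1.52 and 1.38 in sham rats and at 2.36, 1.99, 3.19 and 3.38 in TBI rats, a rise of 1.36 ± 0.26 (adjusted p = 0.035). Neither gene overlapped between the groups, and TBI replicate 2 was the lowest TBI array for both.

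Cyba was at 4.29, 4.17, 4.62 and 4.53 in sham rats and at 5.29, 4.82, 5.99 and 5.97 in TBI rats (1.11 ± 0.24, adjusted p = 0.0426). Cybb was at -1.35, -1.43, -0.65 and -1.47 in sham rats, replicate 3 not well above background, and at -0.32, -0.42, 0.23 and 0.05 in TBI rats (1.11 ± 0.25, adjusted p = 0.0487). TBI replicate 2 was again the lowest TBI array of both, and neither overlapped with sham. Ncf4 was at 0.98, 0.36, 0.94 and 0.72 in sham rats and at 1.63, 0.92, 2.45 and 2.32 in TBI rats, and its difference of 1.08 ± 0.30 did not pass (adjusted p = 0.0713). Thus 4 of 5 subunits were called, where 2.41% of all probes were and 1.06% were called higher, and all 5 passed the thresholds of the methods against 2.72% of probes.

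The 4 calls lay close to the threshold. Limma called 0 of the 5 without sham replicate 2, 3 or 4 or TBI replicate 3 or 4, 2 without sham replicate 1 or TBI replicate 1, and 5 without TBI replicate 2. It also called 0 with the replicate number as a block, without the filter on dim probes, or with the naive arrays left out of the model. With each probe's own variance 2 were called (Ncf1 and Rac2), where 3.24% of all probes were. The size of the difference moved less, with log2 values over the 8 omissions of 1.32 to 1.71 for Ncf1, 1.15 to 1.61 for Rac2, 0.96 to 1.35 for Cyba and 0.99 to 1.30 for Cybb. The second Ncf1 probe rose by 2.19 ± 0.46 (adjusted p = 0.0394).

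The cortex at 2 weeks held the highest group mean of Cyba (6.72 ± 0.33, SD, n = 4) and of Ncf1 (5.0 ± 0.53) among the 15 cortex groups, both in TBI rats. Ncf1 was at 1.86, 2.74, 2.5 and 0.63 in naive, at 2.54, 2.16, -0.23 and 2.71 in sham and at 5.20, 5.37, 4.22 and 5.21 in TBI rats. Cyba was at 4.50, 5.14, 4.66 and 3.22 in naive, at 5.09, 4.84, 1.13 and 5.13 in sham and at 6.76, 6.77, 6.28 and 7.08 in TBI rats. TBI rats did not overlap with sham or naive rats for either gene, and the low sham value in each was replicate 3.

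Rac2 was at 0.90, 1.69, 1.38 and -0.39 in naive, at 1.43, 1.16, -0.59 and 1.58 in sham and at 3.61, 3.58, 3.02 and 3.84 in TBI rats. Ncf4 was at 1.12, 1.53, 0.82 and 0.74 in naive, at 1.51, 0.89, 1.20 and 1.55 in sham and at 3.19, 3.04, 2.72 and 3.17 in TBI rats, and sham replicate 3 was not low for this gene. Sham replicate 2 was not well above background for Rac2 and Ncf4. Cybb was at -0.34, -0.0040, -0.70 and -0.78 in naive, at -0.70, 0.37, 0.06 and 0.32 in sham (the first and second not well above background) and at 0.96, 2.29, 0.58 and 0.75 in TBI rats. Over the array median, no sham array reached the lowest TBI array for any of the 3 genes. Scaled to the 75th percentile instead, sham replicate 3 lay above every TBI array for Ncf4 (0.40 against -1.04 to -0.48). The same held for Cybb (-0.74 against -3.17 to -1.37).

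With all arrays in the model the TBI over sham difference was 3.21 ± 0.70 for Ncf1, 2.67 ± 0.82 for Cyba, 2.62 ± 0.59 for Rac2, 1.74 ± 0.39 for Ncf4 and 1.13 ± 0.48 for Cybb, and 0 of 5 were called (adjusted p between 0.215 and 0.502), where 0.00848% of all probes were. All 5 passed the thresholds of the methods, as did 4.02% of probes in that direction. The median over all tested probes was itself 0.95 above 0, and scaling each array to its 75th percentile lowered the differences by 0.76, with Cyba, Ncf1 and Rac2 then called. Cybb then differed by 0.37, and with the normalized values of the authors its difference was -0.21, so its direction was not settled while this array was included.

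Without sham replicate 3, the median over all probes was 0.0133 and the subunits differed by 2.53 ± 0.40 (Ncf1, 5.78-fold), 2.12 ± 0.39 (Rac2, 4.36-fold), 1.71 ± 0.37 (Ncf4, 3.27-fold), 1.70 ± 0.39 (Cyba, 3.26-fold) and 1.15 ± 0.39 (Cybb, 2.21-fold). Limma then called 4 of 5, all but Cybb, with adjusted p from 2.78e-06 (Ncf1) to 0.00262 (Cyba) and 0.152 for Cybb, where 2.16% of all probes were called. TBI arrays lay on a slide of their own here as at 24 hr, and injury and slide cannot be told apart. These p-values rest on a variance that limma pooled almost fully over probes, with 85.68 prior degrees of freedom against 8 residual ones. With each probe's own variance 0 of 5 were called (adjusted p = 0.0576 for Ncf4, 0.18 for Ncf1 and 0.891 for Cybb), and 0.123% of all probes. The second Ncf1 probe, not well above background on any of these 3 sham arrays, was at least 3.99-fold higher in TBI rats.

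**Figure D2:**
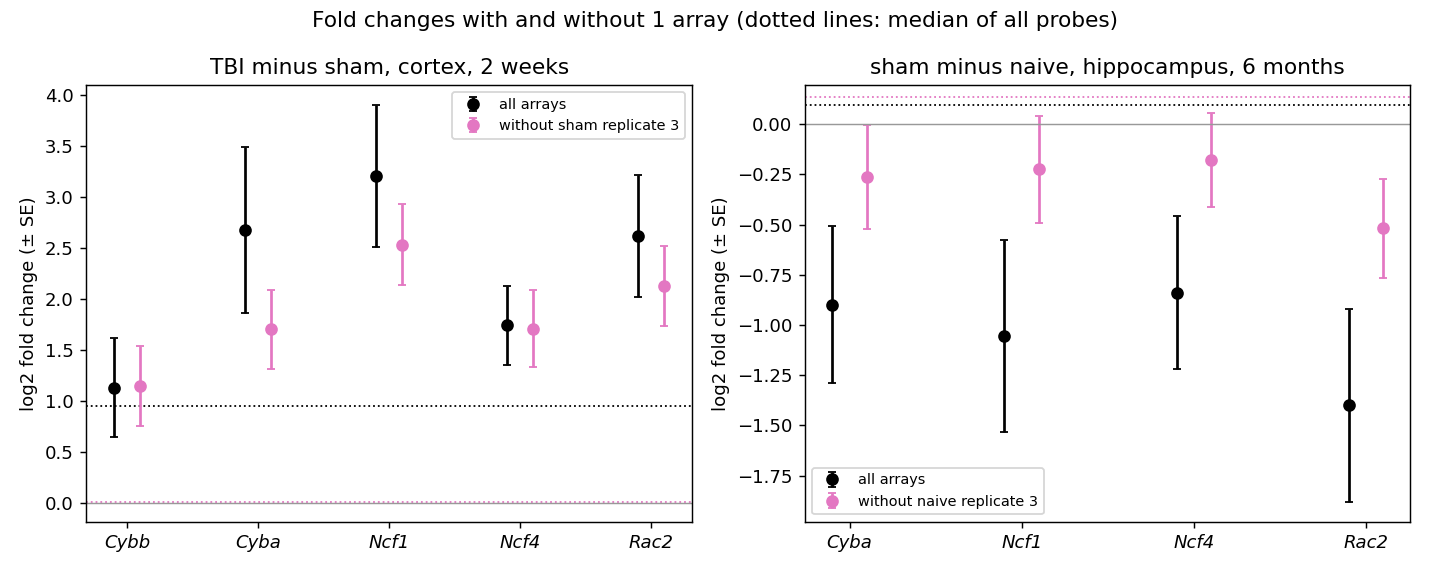
Log2 fold changes (y axis, ± SE) of the tested subunits (x axis) with all arrays and without the single array that stands apart, for TBI minus sham in the cortex at 2 weeks and for sham minus naive in the hippocampus at 6 months. In the cortex Cyba moves from 2.67 to 1.70 and Cybb stays near 1.13, and in the hippocampus Rac2 moves from -1.40 to -0.52.

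From 3 months on no subunit was called between TBI and sham rats in either tissue. Cybb was never well above background on all arrays of the TBI or the sham group there and was not tested. At 3 months the 4 others differed by 0.02 to 0.30 in the hippocampus, where 0.0134% of all probes were called, and by 0.02 to 0.29 in the cortex, where limma called 0% of probes (955, or 4.35%, at an unadjusted p under 0.05). Both comparisons lay within 1 slide each. The Rac2 difference of 0.02 turned negative when some single arrays were left out. Hippocampal Cybb at 3 months was not well above background on any of the 12 arrays.

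At 6 months, when in each tissue TBI and sham arrays were again on separate slides, the cortex showed Ncf1 at 2.44, 2.90, 2.75 and 2.80 in sham rats and at 3.02, 2.88, 3.65 and 4.32 in TBI rats (0.75 ± 0.39). Rac2 was at 1.31, 1.85, 1.20 and 1.32 in sham rats and at 1.5, 1.78, 2.17 and 2.80 in TBI rats (0.64 ± 0.35). TBI replicate 4 was the highest TBI array for both, and naive replicate 4 lay above it, at 4.47 and 2.89. No subunit was called (adjusted p of at least 0.564, 0.0805% of all probes called). The second Ncf1 probe differed more, by 1.29 ± 0.29 with no overlap (adjusted p = 0.166). In the hippocampus, Ncf1 was at 2.89, 2.91, 2.66 and 2.72 in sham rats and at 2.92, 3.77, 3.59 and 3.61 in TBI rats, and Rac2 at 1.24, 1.48, 1.20 and 1.28 and at 1.67, 1.90, 2.03 and 1.97. The groups did not overlap for these 2 genes, but the differences of 0.68 ± 0.50 and 0.59 ± 0.51 did not pass (adjusted p = 1, 0.0134% of all probes called). Leaving the high naive array out of the model brought the SE to 0.26 and 0.23 and the adjusted p to 0.905 and 0.951, where 0.0492% of all probes were called.

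At 12 months the hippocampal differences pointed the other way without passing the test. Rac2 was at 1.85, 2.38, 2.04 and 2.27 in sham rats and at 1.08, 1.57, 1.61 and 1.61 in TBI rats, with no overlap and a difference of -0.67 ± 0.17 (adjusted p = 0.234). Ncf1 was at 3.25, 3.74, 3.45 and 3.85 in sham and at 2.92, 3.18, 3.32 and 3.03 in TBI rats, a difference of -0.46 ± 0.14 (adjusted p = 0.258). TBI replicate 1 held the lowest value of both genes. Limma called 0% of all probes, while 3680 probes (14.5%) had an unadjusted p under 0.05. In the cortex at 12 months the differences lay between -0.17 and 0.04, where again 0% of probes were called and 1456 (5.77%) had an unadjusted p under 0.05.

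**Figure D3:**
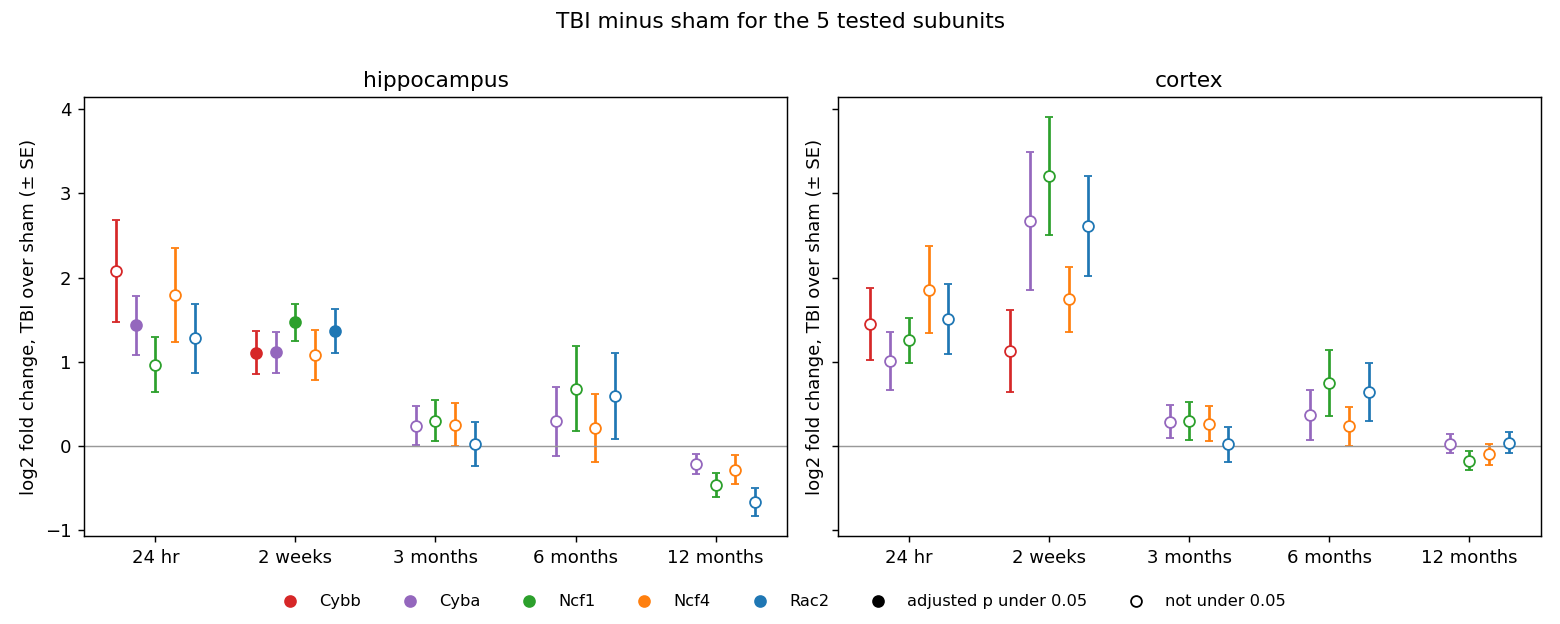
Log2 fold change of TBI over sham (y axis, ± SE) for the 5 tested subunits by interval (x axis), with all arrays, in separate panels for hippocampus and cortex, filled where the adjusted p was under 0.05. The filled points are Cyba at 24 hr and Cybb, Cyba, Ncf1 and Rac2 at 2 weeks, all in the hippocampus, and the largest value is 3.21 for Ncf1 in the cortex at 2 weeks.

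Ordered by group mean, TBI rats at 24 hr or 2 weeks headed the list for each phagocyte subunit in each tissue. In the cortex Cybb ran from 2.01 ± 0.56 (SD) in TBI rats at 24 hr and 1.14 ± 0.78 at 2 weeks through 0.56 ± 0.86 in sham rats at 24 hr to -1.76 ± 1.03 in sham rats at 3 months. The TBI arrays of both intervals overlapped. Cortical Ncf4 ran from 4.16 ± 0.99 and 3.03 ± 0.22 in TBI rats at 24 hr and 2 weeks, through 2.30 ± 1.02 in sham rats at 24 hr, to 0.82 ± 0.20 in TBI rats at 12 months, and Rac2 had the same first 3 groups at 3.86 ± 0.53, 3.51 ± 0.35 and 2.36 ± 1.00. Cyba and Ncf1 had TBI rats at 2 weeks first and at 24 hr next (6.39 ± 0.48 and 4.09 ± 0.52), followed by TBI rats at 6 months (5.52 ± 0.61 and 3.47 ± 0.66). Of the 70 steps between neighbours in these 5 orders, 7 exceeded the SDs of both groups, 5 of them a step down from TBI rats at 24 hr or 2 weeks.

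The order in the hippocampus was led by TBI rats at 24 hr for Cyba (6.44 ± 0.37), Ncf4 (3.72 ± 0.41) and Rac2 (3.68 ± 0.34) and by TBI rats at 2 weeks for Ncf1 (4.06 ± 0.52) and Cybb (-0.12 ± 0.31). Naive rats at 6 months stood among the next ranks of all 5 with SDs of 1.35 to 2.28, through replicate 3. There 8 of 65 steps exceeded both SDs, among them that below TBI rats at 24 hr for Ncf4 and Rac2. Levels at 24 hr and 3 months there come from the smaller design and were set beside the others on the same probes but in separately made arrays.

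Nox4 gave almost no signal. Its probe on the larger design was well above background on 1 array, cortex TBI replicate 2 at 24 hr, where it was at -0.69 while the other 3 arrays of the group were at -3.84, -4.0 and -4.07. Group means ran from -3.68 to -1.87 in the cortex and from -3.77 to -2.15 in the hippocampus, all below the array median. A second Nox4 probe was well above background on 3 arrays, cortex sham replicate 3 at 2 weeks (-0.30), cortex naive replicate 1 at 12 months (-0.07) and hippocampus naive replicate 1 at 2 weeks (1.47), on none of which the other probe was. Nox4 entered no test, and no difference was detectable at this signal.

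Sham and naive rats were compared to see what surgery alone did. Cybb rose by 1.43 ± 0.42 in sham rats of the cortex at 24 hr (2.69-fold, adjusted p = 0.0358), with every sham array above every naive array, of which 2 of 4 were well above background. It was 1 of 5 subunits called, where 19.2% of all probes were. Ncf4 differed by 1.06 (adjusted p = 0.158), Rac2 by 0.60, Cyba by 0.44 and Ncf1 by 0.09. The Cybb call was lost under 75th percentile scaling, with each probe's own variance (18.3% of all probes called), and without any 1 of the 4 naive arrays or sham replicate 2 or 4. Sham and naive arrays shared a slide here. Elsewhere no subunit was called, at 2 weeks, 3 months, 6 months and 12 months in the hippocampus (8.97%, 0%, 3.54% and 3.11% of all probes called) or in the cortex (0%, 0.409%, 0% and 4.35%), nor in the cortex at 2 weeks without sham replicate 3 (0.124%). In the hippocampus at 6 months the difference of sham from naive rats in Rac2 was -1.40 ± 0.48 with all arrays (adjusted p = 0.115) and -0.52 without naive replicate 3 (adjusted p = 0.317, 3.13% of probes called). Rac2 was at 2.34, 1.22, 5.34 and 1.89 in those naive rats, and only replicate 3 stood far above the sham rats.

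TBI rats were also set against naive rats, a comparison that shares the TBI arrays with the one against sham. In both tissues and at every interval naive and TBI arrays lay on separate slides, so none of these differences can be told apart from slide. All 5 subunits rose in the cortex at 24 hr, Ncf4 by 2.92 ± 0.51, Cybb by 2.88 ± 0.43, Rac2 by 2.11 ± 0.41, Cyba by 1.46 ± 0.35 and Ncf1 by 1.34 ± 0.27, with adjusted p from 0.00743 to 0.0177, where 17.5% of all probes were called. For Cybb 2 of the 4 naive arrays were well above background. In the hippocampus at 2 weeks the naive rats were at 2.35, 2.60, 2.23 and 2.11 for Ncf1, the lowest group mean of the hippocampus for that gene, at 1.31, 1.69, 1.26 and 1.15 for Rac2 and at -1.64, -0.67, -1.04 and -0.61 for Cybb (the first 2 not well above background). No TBI array of Ncf1, Rac2 or Cybb fell into these ranges. There Ncf1 (1.73 ± 0.22), Rac2 (1.37 ± 0.26) and Cybb (0.87 ± 0.25) rose, with adjusted p of 0.00114, 0.00923 and 0.0447, where 12.8% were called, while Cyba (0.80, adjusted p = 0.0502) and Ncf4 (0.76, adjusted p = 0.118) did not pass. Without TBI replicate 2 all 5 were called there. At 2 weeks in the cortex no subunit was called (0.12% of probes), although TBI and naive arrays did not overlap for any of the 5. With sham replicate 3 out of the model all 5 were called, by 1.60 (Cybb) to 3.07 (Ncf1), where 4.95% of probes were. With each probe's own variance 4 of 5, all but Cybb, were called there, and 1.03% of all probes. On naive replicate 4 of this comparison 65.2% of probes were well above background, and its 75th percentile lay 2.20 above its median. Scaling to the 75th percentile lowered these differences by 0.47. Cybb then overlapped, with naive replicate 4 at -2.97 and the lowest TBI array at -3.17. At 3, 6 and 12 months limma called 0 subunits in the hippocampus (0.0062%, 3.82% and 2.12% of probes) and in the cortex (0.561%, 0.253% and 5.3%), nor was any called in the hippocampus at 6 months without naive replicate 3 (4.15%).

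The difference of the TBI effect between tissues and between intervals was tested as an interaction. Between tissues these fits, and those of the naive rats, treat the arrays as separate rats although the tissues share them, and taking same-numbered arrays as 1 rat in a block changed no count of called subunits. No subunit was called between hippocampus and cortex at 24 hr (2.42% of probes, with Cybb not well above background in hippocampal sham rats), 2 weeks (0%), 3 months (0%), 6 months (0.004%) or 12 months (0%), and at 2 weeks Ncf1 came nearest, at -1.73 ± 0.77 (adjusted p = 0.511), or -1.06 ± 0.40 without cortex sham replicate 3 (adjusted p = 0.209, 0.0746% of probes). At 12 months the Rac2 effect in the hippocampus minus that in the cortex was -0.71 ± 0.19 (adjusted p = 0.414). From 2 weeks to 6 months the hippocampal effect of TBI differed by -0.82 for Cyba, -0.79 for Ncf1, -0.77 for Rac2 and -0.87 for Ncf4, none called (adjusted p of at least 0.158, 2.27% of probes), and without TBI replicate 2 of 2 weeks 3 of them were. Cybb, not well above background on any hippocampal sham or TBI array at 6 months, is given no value here. In the cortex the same step, over the same 4 genes, was -1.51 to -2.46 with all arrays (0% of probes called) and -1.33 to -1.79 without sham replicate 3 (0.0239%), with the lowest adjusted p of 0.0796 for Ncf4. Neither was any subunit called between 24 hr and 2 weeks in the cortex (0%, or 0.0154% without sham replicate 3 of 2 weeks).

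Naive rats gave the level of the subunits in undisturbed tissue. At 12 months Ncf1 was 0.57 ± 0.11 (adjusted p = 0.00337), Rac2 0.47 ± 0.16 (adjusted p = 0.0446) and Cyba 0.32 ± 0.11 (adjusted p = 0.0451) higher in hippocampus than in cortex, where 37.4% of all probes were called. With 75th percentile scaling 1 subunit was called. At 2 weeks 0 were called (5.01% of probes). At 6 months Rac2 was called at 0.88 ± 0.29 (16.6% of probes), a difference that was 0.00024 without hippocampus replicate 3, when Cybb was the gene called (-1.30 ± 0.31, 15.6% of probes), though well above background on 1 of the 3 hippocampus arrays left. With each probe's own variance neither was called at 6 months, where 7.68% of all probes were, or 2.62% without hippocampus replicate 3. Tissue and slide cannot be told apart in these rats.

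Other genes of the pathway were counted from lists. Of 10 further named oxidase subunits and partners, among them Rac1, Rap1a, Nox1, Duox1 and the chaperone gene Cybc1, 4 or 5 could be tested per comparison, and 0 were called between TBI and sham rats at any interval in either tissue. At 24 hr in the hippocampus Rac1, the widely expressed Rac, differed by 0.79 ± 0.25 (adjusted p = 0.0915).

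Receptors, kinases and exchange factors that switch the oxidase on were counted in the same way. In the hippocampus at 24 hr 11 of 19 tested activation genes rose and 0 fell, where 13.6% of all probes were called, with a list median of 1.46 against -0.02 for all probes. With each probe's own variance 0 of the 19 were called, where 0.0239% of all probes were. The largest were Cd14, a co-receptor for bacterial lipopolysaccharide, by 3.48 ± 0.58 (adjusted p = 0.017), the Fc receptor Fcgr3a by 2.72, the Src family kinase Fgr by 2.12 and Vav1, which loads Rac with GTP, by 2.07. At 2 weeks there 10 of 22 rose and 0 fell (2.41% of all probes called, median 0.83 against -0.11), led by the Fc receptor Fcgr2b (2.08 ± 0.31, adjusted p = 0.0251), Itgam (1.26), Fgr (1.07) and Fcer1g (1.06). At 24 hr in the cortex 1 of 23 rose (0.217% of all probes called), Lyn by 1.15 ± 0.18 (adjusted p = 0.0406), while 17 were higher by the thresholds of the methods (9.05% of all probes). Of 22 tested in the cortex at 2 weeks, 0 were called with all arrays, and 12 of 22 rose without sham replicate 3, led by Fcgr2b (2.92), Itgb2 (2.61), Vav1 (2.38) and Itgam (2.30), where 2.16% of all probes were called. With each probe's own variance 2 of the 22 were called there, and 0.123% of all probes. At 3, 6 and 12 months 0 were called in either tissue, with medians between -0.18 and 0.46.

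The next 3 lists are to be read beside the shares of all probes called in the hippocampus, 13.6% at 24 hr and 2.41% at 2 weeks. With each probe's own variance these shares were 0.0239% and 3.24%. Defence against oxidants was represented by 21 tested genes at 24 hr and 2 weeks. Only Hmox1, the inducible heme oxygenase, was called, at 2.33 ± 0.43 in the hippocampus at 24 hr (adjusted p = 0.0222) and at 0.91 ± 0.20 at 2 weeks (adjusted p = 0.0421). Its difference was 1.44 in the cortex at 2 weeks without sham replicate 3 (adjusted p = 0.0148, or 0.131 with each probe's own variance). That fit called 2.16% of all probes, or 0.123% with each probe's own variance. Of other oxidant and NADPH enzymes, Aox1 fell by 2.74 in the hippocampus at 24 hr (1 of 8 tested) and Me1, a source of NADPH, fell by 0.38 at 2 weeks (1 of 9), and 0 were called in the cortex. Of the myeloid transcription factors, Spi1, which encodes PU.1, rose by 1.26 (adjusted p = 0.0185) and Runx1 by 0.86 (adjusted p = 0.0163) in the hippocampus at 24 hr, and Irf8 rose by 1.65 at 2 weeks (adjusted p = 0.0257). In the cortex Irf8 was called, at 2.76, only at 2 weeks without sham replicate 3, and not with its own variance (adjusted p = 0.197). From 3 months on 0 genes of these 3 lists were called.

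Markers of cells that carry the oxidase were counted as well. Of 12 microglia and macrophage markers, 10 rose in the hippocampus at 2 weeks (2.41% of all probes called), with a median of 0.90 and Cd68 at 2.70 ± 0.42. With each probe's own variance 7 were called, where 3.24% of all probes were. The summed linear level of the markers was 463 to 653 in naive, 443 to 551 in sham and 609 to 1148 in TBI rats. At 24 hr there 2 of 12 rose (13.6% of all probes, median 0.70), with sums of 527 to 614 in sham and 736 to 1164 in TBI rats. In the cortex 0 of 12 were called at 24 hr (median 0.65, 0.217% of all probes called), where the sums were 542 to 651 in naive, 466 to 868 in sham and 900 to 1256 in TBI rats. At 2 weeks in the cortex the sums, over the 11 markers with a value on every array (without Ptprc), were 125 to 668 in naive and 21.2 to 576 in sham rats and 1847, 1770, 1192 and 1857 on the 4 TBI arrays. Of the 12 markers 0 were called there with all arrays (0.00848% of all probes) and 9 without sham replicate 3 (2.16%). Without that array and with each probe's own variance 0 of them were called (0.123%). The activation list shares Itgam with these markers. Their part in the subunit results was not tested.

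Neutrophil markers were mostly at background. Of 9 named, 3 could be tested at 24 hr. In the hippocampus S100a9 rose by 3.99 ± 0.77 (adjusted p = 0.0244), where 13.6% of all probes were called, or 0.0239% with each probe's own variance. Elane, Camp, Cxcr2, Fpr1, Mmp8 and Ltf were well above background on no array of either group. The sums were 4.92 to 5.94 in sham and 16.4 to 105 in TBI rats, and the part of S100a9 in them is not given here. In the cortex 0 of the markers were called (median 2.51, 0.217% of all probes called) and the sums were 5.58 to 9.69 in naive, 7.05 to 46.9 in sham and 15.0 to 169 in TBI rats. At 2 weeks the sums were at most 9.29 in the hippocampus and 16.5 in the cortex. Their part in the results at 24 hr was not tested. T cell markers gave 0 calls. In the other marker lists at 24 hr in the hippocampus Gfap of astrocytes and Tagln of mural cells rose by 1.87 and 2.55, while Gja1 of astrocytes fell by 0.63 and Syt1 of neurons by 0.68. The choroid plexus gene Folr1 rose by 4.27 in the cortex at 6 months (1 of 4 tested, where 0.0805% of all probes were called). The summed cortex identity markers were 126 to 146 in naive cortex at 24 hr and 15.6 to 18.2 in hippocampus sham rats, the order that the tissue labels give.

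As a description over arrays that share groups and slides, the phagocyte subunits followed each other, with both arrays that stand apart included. How far the correlations rest on those arrays was not tested. Over 60 cortex and 36 hippocampus arrays of the larger design, Pearson's r was 0.913 and 0.917 for Cyba with Ncf1, 0.853 and 0.947 for Ncf1 with Rac2 and 0.873 and 0.921 for Ncf4 with Rac2. Over all pairs of the 4 genes other than Cybb and Nox4 it ran from 0.670 to 0.913 in the cortex and from 0.869 to 0.947 in the hippocampus, and over their pairs with Cybb from 0.443 to 0.700 and from 0.503 to 0.623. The genes most like Cybb were Ccl6 (0.808), Slamf9 (0.768), Cd14 (0.760), Kcnn4 (0.756) and Cd36 (0.751) among 11375 genes in the cortex, and RT1-Db1 (0.709), Ccl6 (0.701), Epsti1 (0.699), RT1-Db2 (0.690) and Kcnn4 (0.685) among 11445 in the hippocampus. For Nox4, which was at background, the highest values were Lin28a (0.403), Gpr26 (0.395) and Stxbp6 (0.385) in the cortex and Mterf2 (0.685), Ddx59 (0.665) and Pigr (0.664) in the hippocampus. Nox4 also followed the percent of probes well above background, at r = -0.925 in the hippocampus and -0.417 in the cortex.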

How the data were processed

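Amplified cRNA of hippocampus or cortex was labelled with 1 dye and hybridized to Agilent rat arrays. The authors deposited, for each array, spot intensities from Agilent Feature Extraction 11.5.1.1, of which the processed signal was background-subtracted and not normalized between arrays. They also deposited a table of normalized values, whose intensities are on a linear scale. No other columns were left unmapped. Control spots and 48817 spots marked as outliers by the scanner software were left out, spots of a probe were averaged, log2 was taken and the array median subtracted, the scaling that the methods name. RefSeq identifiers named 46.3% and 61.4% of the probes of the larger (45598 probes, 96 arrays) and smaller design (30367 probes, 17 arrays). Of several probes of a gene, that of the highest average signal stands for it, and the others are given where they disagree.

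Limma 3.58.1 in R 4.3.3 (with the package data.table, version 1.17.8) was fitted per tissue and interval with all groups (lmFit, contrasts.fit, eBayes), without a block, and was tested on simulated data. Contrasts between tissues or intervals were fitted on the arrays of both. All adjusted p-values are Benjamini-Hochberg values over all tested probes. Arrays number 2 to 4 per group, which limits the precision. Replicates are separate rats. A bound uses the lowest signal well above background on each array of the dimmer group. Same-numbered TBI and sham arrays deviated together, at r between 0.115 and 0.219 in 4 of 4 pairs, only in the cortex at 12 months. The members and gene lists were chosen with earlier results of these data known. Named list genes are the up to 4 called genes with the largest change per list and comparison, any oxidase subunit, and the 5 genes most like Cybb and 3 most like Nox4 by Pearson's r over arrays, among genes well above background on at least a share of 0.5 of them. Alternatives were 75th percentile scaling, quantile normalization, the authors' values, normexp (on the median signal, offset 50), no filter, only the groups compared, the replicate block and leaving out each array. Those without the 2 arrays that stand apart (in the hippocampus at 6 months and in the cortex at 2 weeks) and with each probe's own variance were chosen after seeing the data. For TBI vs sham in the cortex at 2 weeks, this omission was also among the planned omissions of each array. It was singled out after seeing the data. Promoter sequences are from RefSeq, build GRCr8, and cover 4 of the 6 genes. Some genes of the lists are not reported here.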

Additional observations from a re-analysis of the deposited data

Results flagged for a closer look

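Of 162 sets of 4 arrays, 13 had 1 array whose gap to the others exceeded Dixon's 95% critical value, where chance gives about 1 in 20. For Cyba, cortex sham replicate 3 at 2 weeks was at 1.13, against 4.84 to 5.13. Ncf1 was at 4.22 on cortex TBI replicate 3 at 2 weeks, against 5.20 to 5.37, and at 3.40 on hippocampus sham replicate 3 at 3 months, against 2.36 to 2.47. Rac2 was at 1.54 on hippocampus naive replicate 3 at 3 months, against 0.82 to 0.90, at 2.89 on cortex naive replicate 4 at 6 months, against 1.37 to 1.61, and at 1.08 on hippocampus TBI replicate 1 at 12 months, against 1.57 to 1.61. Ncf4 was at 1.90 on cortex TBI replicate 2 at 3 months, against 1.24 to 1.31. Cybb was at -1.78 on cortex naive replicate 2 at 24 hr, against -0.60 to -0.49, and at -0.65 on hippocampus sham replicate 3 at 2 weeks, against -1.47 to -1.35, and neither of these 2 values was well above background. Nox4 accounted for 4, cortex TBI replicate 2 at 24 hr (-0.69 against -4.07 to -3.84), cortex TBI replicate 1 at 3 months (-1.95 against -2.75 to -2.66), cortex TBI replicate 2 at 6 months (-3.76 against -3.50 to -3.45) and hippocampus naive replicate 2 at 3 months (-2.70 against -3.37 to -3.32). Of these 4 Nox4 values the first alone was well above background.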

How the results depend on the processing

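The number of called subunits stayed within 1.5 times its value in 479 of 538 recomputed counts and moved in 59. For TBI vs sham in the hippocampus at 24 hr (1 called), it was 0 with the replicate block, 3 with normexp, 0 without the filter, 0 with each probe's own variance (0.0239% of all probes called) and 0 to 3 when 1 array was left out. At 2 weeks there (4 called) it was 0 with the replicate block, 0 without the filter, 0 with only the 2 groups compared, 2 with each probe's own variance (3.24% of all probes called) and 0 to 5 when 1 array was left out. At 24 hr in the cortex (0 called) it was 4 without the filter and 0 to 3 when 1 array was left out. At 2 weeks in the cortex (0 called) it was 3 with 75th percentile scaling, 1 with quantile normalization, 3 with normexp, 3 without the filter, 1 (Ncf4) with each probe's own variance and 0 to 4 when 1 array was left out. For sham vs naive it was 1 with the replicate block in the hippocampus at 6 months (0 called), and in the cortex at 24 hr (1 called) 0 with 75th percentile scaling, 0 with each probe's own variance and 0 to 1 when 1 array was left out. For TBI vs naive it was 2 to 5 on leaving out an array in the hippocampus at 2 weeks (3 called), and in the cortex 3 with 75th percentile scaling, 1 with each probe's own variance and 0 to 5 on leaving out an array at 2 weeks (0 called), 1 with 75th percentile scaling at 3 months (0 called) and 0 to 1 on leaving out an array at 12 months (0 called, 1 without naive replicate 4). The hippocampal step from 2 weeks to 6 months (0 called) gave 0 to 3. Between naive tissues it was 0 with 75th percentile scaling, 0 with each probe's own variance and 0 to 2 on leaving out an array at 6 months (1 called), and at 12 months (3 called) 1 with 75th percentile scaling and 1 to 2 on leaving out an array.

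Of the subunit differences between TBI and sham, 556 recomputed values kept direction and side of the threshold, 26 passed it, 44 lost it and 14 changed sign. The sign of Cybb in the cortex at 2 weeks (1.13) was -0.21 with the authors' values. The others were differences near 0. Rac2 in the hippocampus at 3 months (0.02) was -0.085, -0.14, -0.024 and -0.0057 on leaving out sham replicate 1 or 4 or TBI replicate 3 or 4. Rac2 in the cortex at 3 months (0.02) was -0.042 with the authors' values and -0.15, -0.040, -0.0041 and -0.044 without sham replicate 1 or TBI replicate 2, 3 or 4. At 12 months in the cortex Cyba (0.03) was -0.014, -0.0092 and -0.049 without sham replicate 1 or 2 or TBI replicate 4, and Rac2 (0.04) was -0.027 without TBI replicate 3. Over all omissions these 4 differences ran from -0.14 to 0.32, -0.15 to 0.17, -0.049 to 0.11 and -0.027 to 0.096, in that order. The cause was not tested. In the cortex at 12 months, the interval whose numbers pair the arrays, the replicate block gave 0 called subunits as before. It changed no other call than those given. Between tissues, same-numbered arrays of a group correlated above 0.1 in all pairs for the naive rats at 2 weeks and 12 months, where the block gave 0 and 3 called subunits as before, for sham and TBI rats at 6 months, where it gave 0 as before, and in 28 of 53 pairs in all. Same-numbered arrays did so too in 2 of 2 pairs of sham rats at 24 hr and 4 of 4 of TBI rats at 2 weeks, where the block changed no count. In 29 of 53 pairs the best match was the array of the same number. Between TBI and sham rats of a tissue, at most 2 of 4 pairs correlated above 0.1 in any comparison other than the cortex at 12 months. A block for the slide was not run, since every group lay on 1 slide, and normexp used the median signal because the files hold no mean signal. Signal over background limits Cybb and leaves Nox4 without a test.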
